A study of Homo sapiens with 6 samples.

Results

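Keratin genes encode the intermediate filament proteins of epithelial cells. The set described here holds the protein-coding genes whose symbol is KRT followed by a number and at most one of the letters A to C, named by GENCODE release 29. It has 55 members among the 19762 protein-coding genes of the files, 29 of type I and 26 of type II, and every member is listed for all samples.

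SiHa is an established human line that came from a cervical squamous cell carcinoma. The cells grew in DMEM with fetal bovine serum and received, by Lipofectamine reagent, either the GV230-BRCA1 plasmid (OV-BRCA1 group, 3 samples) or the GV230 plasmid alone (NC group, 3 samples), and RNA was taken with Trizol after 48 h for mRNA libraries. All samples come from this 1 line. The study's methods call the samples of a group biological replicates, without saying whether these were separate cultures or transfections, and p-values measure only the spread between these samples. The values are FPKM, fragments per kilobase of transcript scaled to mapped depth, summed here over the transcripts of a gene. The depth behind them was estimated from the value of 1 fragment in genes with 1 transcript, and came to 15.6, 16.1 and 13.6 M fragments for OV-BRCA1 samples 1, 2 and 3, with 15.6, 18.2 and 19.1 M for NC samples 1, 2 and 3.

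Keratins work in pairs, 1 acidic type I chain with 1 basic type II chain, and each epithelium is known by the pairs it uses. KRT8 with KRT18 is the pair of simple epithelia, often joined by KRT7 and KRT19. KRT5 with KRT14 marks the basal layer of stratified squamous epithelia, KRT1 with KRT10 the layers above it, and KRT6, KRT16 and KRT17 appear where squamous epithelium is stressed or proliferates. Hair keratins such as KRT34, KRT81 and KRT86 belong to the hair shaft and nail.

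The transfected gene was measured first. BRCA1, a DNA repair gene, stood at 35.7, 40.8 and 34.9 FPKM in the OV-BRCA1 samples and at 20.1, 14.9 and 21.7 FPKM in the NC samples, so the groups did not overlap and matched the labels. Its log2 fold change on the log2(FPKM + 1) scale was 0.95 (SE 0.14, adjusted p = 0.00373, limma with Benjamini-Hochberg adjustment). Leaving out 1 sample at a time moved it between 0.80 and 1.06, with every adjusted p below the threshold. The glycolytic gene GAPDH, at 2896 ± 95.1 and 2832 ± 72.0 FPKM (mean ± SD, n = 3 each), did not pass the test (log2 fold change 0.03, adjusted p = 0.586), and the sign of that small value turned when samples were scaled to nuclear protein-coding FPKM (-0.01).

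The squamous markers were checked against the origin of the line. Of 10 such markers, 7 had a mean FPKM under 1. TP63, the transcription factor that sets squamous fate, lay between 0.0131 and 0.368 FPKM over the 6 samples, the basal keratin KRT5 between 0 and 0.202, and the desmosomal genes DSG3, DSC3 and PKP1 at or near 0. The markers with signal were SFN, the most abundant, TRIM29 and S100A2. Summed over the 10 genes, the level was 196, 231 and 181 FPKM in the OV-BRCA1 samples and 255, 252 and 267 FPKM in the NC samples. Most of that difference is TRIM29, at 71.7 ± 25.7 against 119.7 ± 7.17 FPKM (SD, n = 3), whose call is lost when any of 5 samples is left out. Of the 4 tested markers 1 was higher (KRT6A, which passed the filter through the OV-BRCA1 group alone) and 1 lower (TRIM29), where 16.4% and 18.9% of all genes tested were, and the low values of TP63 and KRT14 lay higher in each OV-BRCA1 sample than in any NC sample, so the sum does not stand for its members. TP63, KRT5 and the 3 desmosomal markers were thus near 0 in both groups, and the set is called keratin genes here, not a squamous program.

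Markers of other cell types were read in the same way. The glandular list without KRT7 (6 genes, 4 with a mean under 1, TFF3 at 0 in all samples, MUC5B and MUC4 at or near 0) summed to 14.4, 15.0 and 13.2 FPKM in the OV-BRCA1 samples and 8.97, 10.3 and 8.86 in the NC samples. PAX8 was its most abundant gene, and its epithelial adhesion gene EPCAM was a DEG, at 6.79 ± 0.860 against 2.59 ± 0.457 FPKM (SD, n = 3; log2 fold change 1.12). PAX8 did not pass, at 7.28 ± 0.250 against 6.59 ± 0.375 FPKM (adjusted p = 0.224 by limma), and MUC16 had 0.147 and 0.180 FPKM on average, so most of the difference in this sum is EPCAM. The mesenchymal list (7 genes, 5 with a mean of at least 1) summed to 49.2, 53.4 and 56.8 against 37.6, 34.3 and 35.4 FPKM, most of it FN1, whose call was lost with its most abundant transcript (adjusted p = 0.0582 by limma). The other 4 tested members did not pass, TWIST1 at 3.71 ± 0.0447 against 4.21 ± 0.557 FPKM, ZEB1 at 3.66 ± 1.10 against 3.10 ± 0.599, SNAI2 at 0.952 ± 0.303 against 1.45 ± 0.117 and ZEB2 at 1.13 ± 0.395 against 1.12 ± 0.434 (SD, n = 3), with a list median of 0.01, so most of the difference in the sum is FN1. CDH2 was at 0 and VIM, the mesenchymal filament protein, was under the filter at 1.36, 0.220 and 0.202 FPKM in the OV-BRCA1 samples and 0.0847, 0.0804 and 0.164 in the NC samples, which do not overlap. The fibroblast list (7 genes) summed to 3.36, 3.33 and 4.03 against 6.75, 6.73 and 6.20 FPKM, nearly all COL1A1, with LUM at 0. The leukocyte list (7 genes) summed to 31.3, 34.1 and 37.2 against 24.0, 22.2 and 23.0 FPKM, nearly all from CD68 and CD14, which moved in opposite directions, with the defining marker PTPRC at 0 in all samples. CD68, a lysosomal gene, rose from 3.43 ± 0.718 to 26.3 ± 3.73 FPKM (SD, n = 3; log2 fold change 2.63), and CD14, a lipopolysaccharide receptor, fell from 19.4 ± 1.34 to 7.79 ± 1.198 FPKM (log2 fold change -1.22), both as DEGs. The endothelial list (5 genes) summed to at most 1.54 FPKM, with PECAM1 highest and VWF at 0. These levels moved with the groups, and their part in the keratin results was not tested.

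In level, the set was steep. In the NC group KRT7 ranked 19 among the 19762 protein-coding genes by mean FPKM, KRT17 ranked 24, KRT8 131 and KRT18 265. KRT10 followed at rank 3539, KRT80 at 7267 and KRT16 at 7399. Of the 55 members, 11 reached a mean of 1 FPKM in either group. KRT34 and KRT6A did so in the OV-BRCA1 group alone, with NC means of 0.119 and 0.173 FPKM. The other 44 members stayed under 1 in both groups, and 21 of these were listed at 0 in all 6 samples. By known role, 3 of 5 simple epithelial keratins reached 1 FPKM, 3 of 5 stress keratins, 3 of 17 hair and nail keratins, 1 of 11 suprabasal keratins, 1 of 5 others (KRT80), 0 of 3 basal keratins and 0 of 9 keratins of the hair follicle root sheath. Fewer cells with a transcript and less of it per cell cannot be told apart in these bulk samples.

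**Figure D1:**
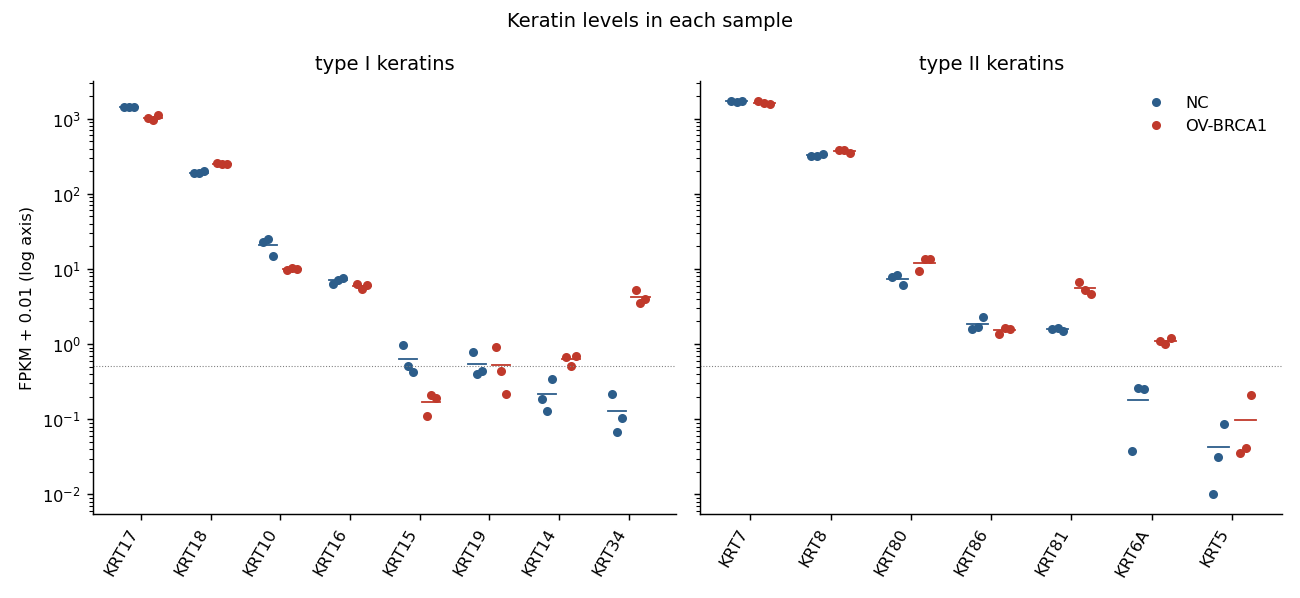
FPKM + 0.01 of type I (left) and type II (right) keratins on a log axis, 1 point per sample with the group mean as a line, for the 11 tested genes and for KRT14, KRT15, KRT19 and KRT5; the dotted line marks the filter level of 0.5 FPKM. KRT7 and KRT17 lie near or above 1000 FPKM in each sample, and KRT34 is the gene whose groups lie farthest apart.

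Nearly all keratin signal came from 4 genes. KRT7, KRT17, KRT8 and KRT18 made up 98.7% (OV-BRCA1) and 98.9% (NC) of the summed keratin FPKM. Type I keratins summed to 1293, 1224 and 1401 FPKM in the OV-BRCA1 samples and to 1662, 1647 and 1657 FPKM in the NC samples. Every OV-BRCA1 sample thus held less type I signal than every NC sample, and the group mean was 0.789 times that of the NC group. Type II keratins summed to 2098, 2016 and 1919 against 2051, 1980.2 and 2081 FPKM, values that overlap between the groups. Their ratio of means was 0.987, and it became 1.01 with median-of-ratios scaling and 0.960 with scaling to nuclear protein-coding FPKM, whereas the type I ratio was 0.807 and 0.767. Type I over type II was 0.616, 0.607 and 0.730 in the OV-BRCA1 samples and 0.810, 0.832 and 0.796 in the NC samples. This ratio within a sample does not depend on scaling, and OV-BRCA1 sample 3 lay closest to the NC group. Of all nuclear protein-coding FPKM, keratins held 0.909% (OV-BRCA1) and 1.04% (NC). Mitochondrial genes held 14.8%, 17.2% and 16.3% of all FPKM in the OV-BRCA1 samples and 21.9%, 23.2% and 21.0% in the NC samples, and their part in these differences was not tested. Sums over members were given no test.

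**Figure D2:**
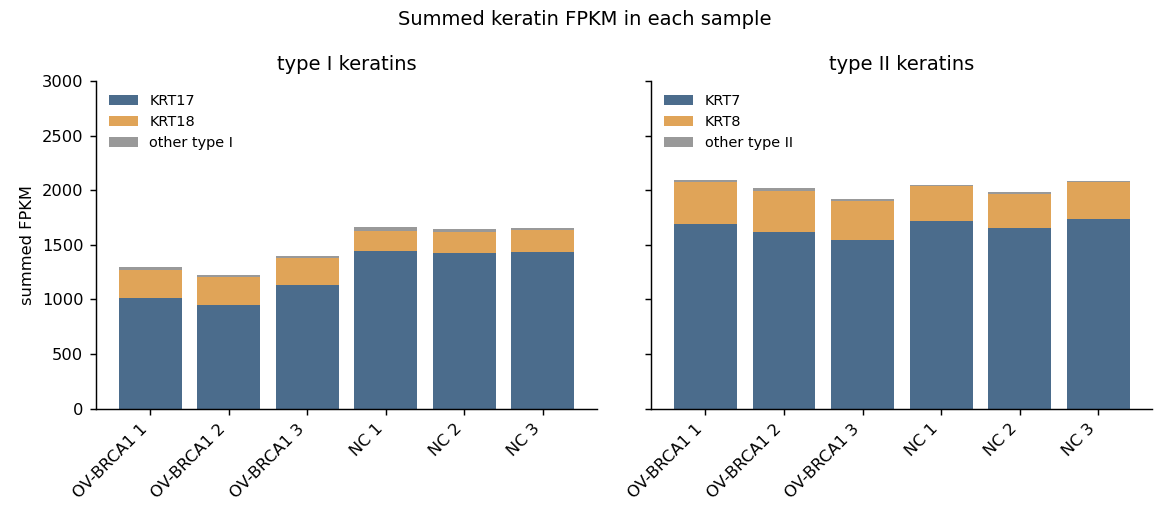
Summed FPKM of type I (left) and type II (right) keratins in each sample, with the 2 most abundant genes of each type in colour and all others in grey. The type I columns of the OV-BRCA1 group (1224 to 1401 FPKM) are lower than those of the NC group (1647 to 1662 FPKM), and the difference lies in the KRT17 segment.

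A total of 11 keratins, 5 of type I and 6 of type II, passed the filter of at least 0.5 FPKM in at least 3 samples. KRT34 and KRT6A passed it through the OV-BRCA1 group alone, and so had to differ. By adjusted p below 0.05, 6 of the 11 were higher in the OV-BRCA1 group (KRT34, KRT81, KRT6A, KRT80, KRT18 and KRT8), where 16.4% of all 16321 genes tested were, and 2 were lower (KRT17 and KRT10), where 18.9% were. The count of 6 higher fell to between 2 and 5 with 1 sample left out, and to 4 with the replicate block. Part of that drop is the filter, which asks for 3 samples: KRT34 and KRT6A were not tested without an OV-BRCA1 sample. The count was 2 or 3 in those runs, and 4 or 5 without an NC sample. By type, 2 of 5 type I keratins were higher and 2 lower, and 4 of 6 type II keratins were higher and 0 lower. No type II keratin had an unadjusted p below 0.05 in the lower direction. Of the type II calls, KRT8 and KRT80 each lost theirs in 4 of 6 runs with 1 sample left out. The type II keratin KRT6A passed the filter through the OV-BRCA1 group alone. As DEGs, with an absolute log2 fold change above 1 as well, 2 were higher (KRT34 and KRT81), where 2.89% of all genes were, and 0 were lower, where 1.10% were. Every sample of 1 group lay beyond every sample of the other in 6 keratins on the higher side, where 23.4% of all genes did so, and in 3 on the lower side, where 27.4% did. With so few genes tested, and with members that could pass the filter from 1 group only, these shares describe the set and were given no test. The median log2 fold change over all genes tested was -0.04.

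**Figure D3:**
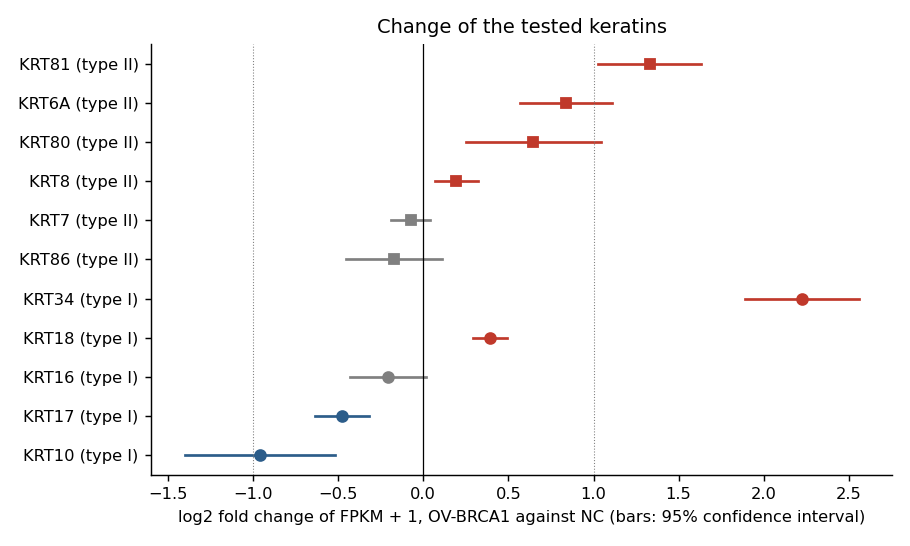
Log2 fold change of FPKM + 1 in the OV-BRCA1 group against the NC group for the 11 tested keratins, with bars for the 95% confidence interval; circles are type I and squares type II, red is higher and blue lower by adjusted p, grey did not pass, and dotted lines mark the fold change of the DEG criterion. KRT34 (2.22) and KRT81 (1.33) lie beyond the line, and KRT10 (-0.96) just inside it. KRT34 and KRT6A passed the filter through the OV-BRCA1 group alone.

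KRT7, a type II keratin of simple epithelia, was the most abundant member. It stood at 1694, 1614 and 1544 FPKM in the OV-BRCA1 samples and at 1719, 1652 and 1732 FPKM in the NC samples. The groups overlapped, and the log2 fold change was -0.07 (95% confidence interval -0.19 to 0.04, adjusted p = 0.272). KRT7 alone made up 80.4% (OV-BRCA1) and 83.5% (NC) of type II signal. The files divide it over 14 transcripts, of which the coding KRT7-201 carried 74.5%. This transcript had 1236 ± 54.2 against 1236 ± 70.3 FPKM (SD, n = 3), so its group means were the same to 4 digits. One short transcript of KRT7, the retained-intron KRT7-208, was lower (22.2 ± 1.88 against 38.9 ± 1.81 FPKM, adjusted p = 0.0109 over all 50925 transcripts tested by limma). The antisense gene KRT7-AS, which lies within KRT7 on the opposite strand, fell as well, from 64.3, 61.5 and 62.2 FPKM in the NC samples to 36.8, 39.4 and 36.6 (log2 fold change -0.72, SE 0.05, adjusted p = 0.000203 by limma). Use of strand in the counting is not given in the sources used here, so reads of KRT7 and KRT7-AS cannot be told apart for certain. KRT7 also shares its end with the start of KRT86 on the same strand.

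KRT17, the type I keratin of stressed and proliferating squamous epithelium, was lower in the OV-BRCA1 group. Its FPKM was 1014, 953 and 1131 in the OV-BRCA1 samples and 1442, 1425 and 1435 in the NC samples. The NC samples lay close together, and each OV-BRCA1 sample was well under them. The mean fell by 28.0%, with a log2 fold change of -0.48 (SE 0.07, adjusted p = 0.00263 by limma), and the call of the gene held in each alternative run, least clearly with the most abundant transcript (adjusted p = 0.0476). KRT17 gave 79.1% (OV-BRCA1) and 86.6% (NC) of type I signal. Relative to KRT7, its FPKM was 0.598, 0.590 and 0.733 in the OV-BRCA1 samples and 0.839, 0.862 and 0.829 in the NC samples.

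The transcripts of KRT17 were less even than their sum. A retained-intron transcript, KRT17-204, carried 59.0% of the gene's FPKM, and coding transcripts carried 32.2% (OV-BRCA1) and 35.0% (NC). The coding KRT17-201 stood at 305, 244 and 108 FPKM in the OV-BRCA1 samples and at 478, 376 and 463 in the NC samples, and the shorter coding KRT17-206 at 41.1, 32.9 and 232 against 47.0, 53.7 and 49.2. OV-BRCA1 sample 3 was thus low in the first and high in the second, while the gene sum was not apart by as much. Tested one by one, an alternative chosen after the data were seen, 2 KRT17 transcripts were lower by adjusted p, the retained-intron KRT17-203 (42.1 ± 3.51 against 93.1 ± 3.94 FPKM) and KRT17-207 (14.8 ± 1.43 against 26.9 ± 1.52 FPKM), which make up 5.48% and 1.69% of the gene. The larger KRT17-204 (adjusted p = 0.0834) and KRT17-201 (adjusted p = 0.175, both by limma) did not pass in that fit. Over the 51 keratin transcripts tested, 2 were higher and 4 lower, where 2.85% and 2.63% of all transcripts were. How the authors' tool shared reads between transcripts of a gene is not given in the sources used here.

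KRT16, the other type I keratin of this class with signal, is a partner of KRT6 in stressed epithelium. It had 6.30, 5.41 and 6.10 FPKM in the OV-BRCA1 samples and 6.32, 7.19 and 7.53 in the NC samples. The samples did not overlap by a small margin, and the test was not passed (log2 fold change -0.21, adjusted p = 0.132 by limma). KRT6A, its type II partner, was low: 1.10, 0.979 and 1.19 FPKM in the OV-BRCA1 samples against 0.0278, 0.250 and 0.240 in the NC samples. By the estimated depth this is 39.6, 36.4 and 37.5 fragments against 1.00, 10.5 and 10.6. The log2 fold change was 0.84 (SE 0.11, adjusted p = 0.00235 by limma). It was 2.26 with a pseudocount of 0.1, since a pseudocount of 1 understates changes of low genes. KRT6A passed the filter through the OV-BRCA1 group alone, so it had to differ and its p-value is no separate support. The near-identical KRT6B and KRT6C were at 0 in the NC samples and under 0.1 FPKM in the OV-BRCA1 samples, and reads could be shared among the 3 genes.

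In the simple epithelial pair both gene sums passed the test as higher, KRT8 with a call that several alternatives lose. KRT18, type I, stood at 256, 250.4 and 249 FPKM in the OV-BRCA1 samples and at 188, 188 and 199 in the NC samples. Its ratio of means was 1.31 (log2 fold change 0.39, SE 0.04, adjusted p = 0.000976 by limma), and the call of the gene held in each alternative run. Tested one by one over all transcripts, none of its 7 transcripts passed, among them KRT18-201 (53.4% of the gene, adjusted p = 0.0727) and KRT18-207 (34.0%, adjusted p = 0.167, both by limma). KRT8, type II, stood at 385, 380.0 and 354 FPKM against 321, 316 and 339. The groups did not overlap but lay close, with a ratio of 1.15 (log2 fold change 0.20, SE 0.05, adjusted p = 0.0282 by limma). The KRT8 call was lost without OV-BRCA1 sample 1 (adjusted p = 0.0774) or 2 (0.0782), without NC sample 1 (0.0802) or 2 (0.0846), with no filter (0.0701), with the replicate block (0.0813) and with scaling to nuclear protein-coding FPKM (0.0555); over its alternatives the adjusted p ran from 0.0161 to 0.0846. KRT18 over KRT8 was 0.666, 0.659 and 0.704 in the OV-BRCA1 samples and 0.586, 0.596 and 0.586 in the NC samples, so KRT18 gained on its partner in each OV-BRCA1 sample.

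KRT8 and KRT18 are neighbours on chromosome 12 (GRCh38, KRT18 at 52948871 to 52952901), and KRT18 is the only type I keratin outside chromosome 17 among those with a mean of at least 1 FPKM. Some annotated KRT8 transcripts reach into the start of KRT18 on the opposite strand, so reads in the overlap could fall to either gene. The coding KRT8-215, which does not reach KRT18, carried 72.1% of KRT8 and had 268 ± 6.39 against 236 ± 5.08 FPKM (SD, n = 3; log2 fold change 0.18, adjusted p = 0.0603 over all transcripts by limma). The only KRT8 transcript past the transcript test lay the opposite way, the retained-intron KRT8-203 at 1.78 ± 0.167 against 5.32 ± 1.25 FPKM (log2 fold change -1.17, adjusted p = 0.0298 by limma). KRT8P12, a processed pseudogene on chromosome 3 with sequence close to KRT8, was higher too, at 6.19 ± 0.240 against 4.50 ± 0.367 FPKM (SD, n = 3; log2 fold change 0.39, adjusted p = 0.0126 by limma), and could take reads from it; its call was lost with its most abundant transcript alone (adjusted p = 0.191). Of 147 keratin pseudogenes 3 had a mean of at least 1 FPKM. Of the others, KRT8P3 had 1.09 ± 0.277 and 1.03 ± 0.331 FPKM and KRT87P 1.95 ± 0.188 and 2.65 ± 0.311 FPKM, and neither passed the test, although KRT87P passed with scaling to nuclear protein-coding FPKM (adjusted p = 0.0449 by limma). The remaining simple epithelial type I keratins were low. KRT19 lay between 0.206 and 0.917 FPKM with overlapping groups, and KRT20 was at most 0.206.

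KRT10, the type I keratin of suprabasal layers, was lower in the OV-BRCA1 group, but its transcripts differed. The gene sum was 9.71, 10.3 and 9.99 FPKM in the OV-BRCA1 samples and 23.0, 24.7 and 14.8 in the NC samples. NC sample 3 lay between the other NC samples and the OV-BRCA1 group, and the log2 fold change was -0.96 (SE 0.18, adjusted p = 0.00898 by limma), or -1.18 without NC sample 3, past the DEG criterion. KRT10 has 2 transcripts in the annotation. The full-length KRT10-201 (2124 bases) had 7.86, 7.81 and 8.33 FPKM in the OV-BRCA1 samples and 7.99, 8.72 and 11.7 in the NC samples, which overlap. The short KRT10-202 (583 bases), confined to the end of the gene, had 1.85, 2.52 and 1.66 against 15.0, 16.0 and 3.18, so most of the difference in the sum came from it and from NC samples 1 and 2. Neither passed the transcript test (log2 fold change -0.20, adjusted p = 0.520, and -1.81, adjusted p = 0.146, by limma), and with the most abundant transcript in place of the sum the KRT10 call was lost (adjusted p = 0.383). TMEM99 overlaps KRT10 on the opposite strand and had 2.46 and 2.51 FPKM on average in the OV-BRCA1 and NC groups. KRT1, the type II partner of KRT10, was at 0 in every sample but NC sample 1, with about 1 estimated fragment.

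**Figure D4:**
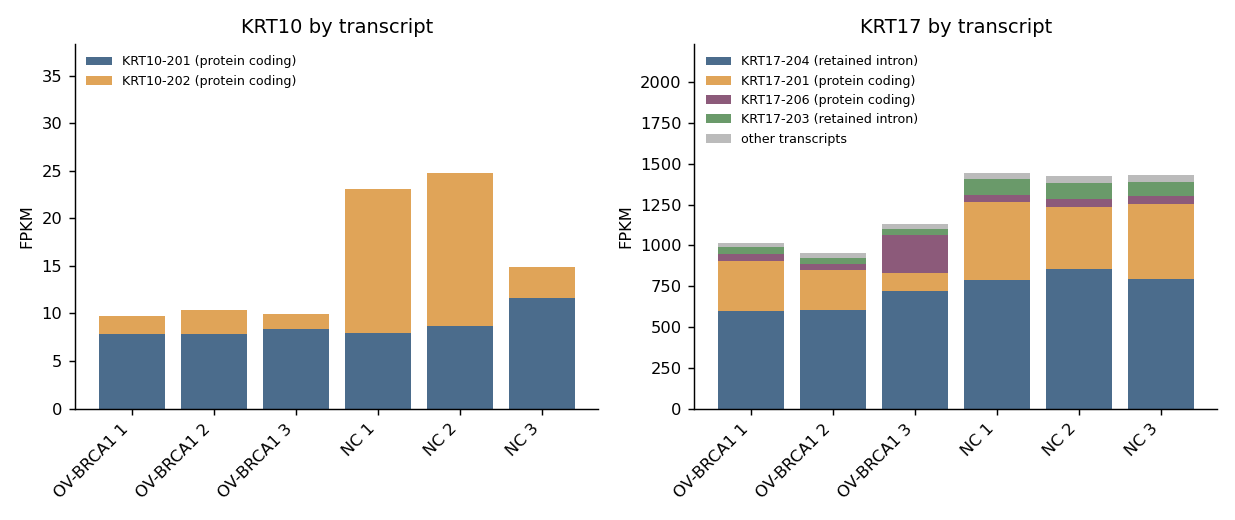
FPKM of KRT10 (left) and KRT17 (right) in each sample, divided over their transcripts. In KRT10 the KRT10-202 segment is large in NC samples 1 and 2 (15.0 and 16.0 FPKM) and small elsewhere, and in KRT17 the KRT17-206 segment is large in OV-BRCA1 sample 3 (232 FPKM).

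KRT34, a type I hair keratin, showed the largest fold change among the tested keratins. It stood at 5.24, 3.56 and 3.998 FPKM in the OV-BRCA1 samples and at 0.206, 0.0582 and 0.0942 in the NC samples, about 143, 100.3 and 95.5 against 5.62, 1.85 and 3.15 estimated fragments. The OV-BRCA1 mean was 35.7 times the NC mean, a ratio that rests on few fragments in the NC group and ran from 28.4 without NC sample 2 to 56.0 without NC sample 1. On the log2(FPKM + 1) scale the log2 fold change was 2.22 (SE 0.14, adjusted p = 0.000123 by limma), and 4.35 with a pseudocount of 0.1. KRT34 passed the filter through the OV-BRCA1 group alone and so had to differ, and its p-value is no separate support. KRT34 moved from rank 13402 to rank 9044 among protein-coding genes. It has 1 annotated transcript and no overlapping gene. In a window of 300 kb to either side, chosen after the values were seen, lie 15 other keratins and 23 keratin-associated protein genes of the hair shaft. Of the 53 other genes in that window only KRT16 and KRT17 had a group mean of at least 1 FPKM, and the highest mean of a keratin-associated protein gene there was 0.0509 FPKM. Of all 94 keratin-associated protein genes, 62 were at 0 in all samples and 3 had a mean of at least 1 FPKM.

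KRT81, a type II hair keratin, was the other DEG. Its FPKM was 6.60, 5.21 and 4.63 in the OV-BRCA1 samples and 1.56, 1.65 and 1.47 in the NC samples. Each OV-BRCA1 sample was above each NC sample, at a ratio of means of 3.52 (log2 fold change 1.33, SE 0.13, adjusted p = 0.000620 by limma). KRT86, which spans KRT81 on the opposite strand and is close to it in sequence, did not move with it, at 1.35, 1.63 and 1.57 against 1.59, 1.70 and 2.25 FPKM (log2 fold change -0.17, adjusted p = 0.295 by limma). Reads could be split between these genes. The other 14 hair and nail keratins had no value above 0.113 FPKM.

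KRT80, a type II keratin found with desmosomes in many epithelia, stood at 9.504, 13.4 and 13.4 FPKM in the OV-BRCA1 samples and at 7.78, 8.22 and 6.02 in the NC samples. It passed by adjusted p with a log2 fold change of 0.64 (SE 0.16, adjusted p = 0.0253 by limma). The call was lost without OV-BRCA1 sample 2 (adjusted p = 0.0771) or 3 (0.0782), without NC sample 1 (0.0529) or 3 (0.0670), with no filter (0.0646), with the replicate block (0.0536) and with the most abundant transcript (0.709), and was lowest at 0.0126 without OV-BRCA1 sample 1. Its 3 transcripts changed places between samples. KRT80-202 had 10.2 FPKM in OV-BRCA1 sample 2 and 0.425 to 1.9999 in the others.

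Among keratins that did not pass the filter, 3 were chosen for mention after their values were seen, besides the marker KRT14. KRT14, the basal type I keratin, had 0.671, 0.497 and 0.675 FPKM in the OV-BRCA1 samples and 0.175, 0.117 and 0.333 in the NC samples, and with no filter its adjusted p was 0.0363 by limma (log2 fold change 0.42). KRT15, another basal keratin, lay the opposite way at 0.101, 0.197 and 0.181 against 0.969, 0.504 and 0.414 FPKM, with an adjusted p of 0.0800 in that fit. KRT75, of the hair follicle, was listed at 0 in the NC samples and at 0.0825, 0.107 and 0.146 FPKM in the OV-BRCA1 samples, only 2.99, 3.99 and 4.63 estimated fragments. KRT9 of palm and sole epidermis stayed at or under 0.0836 FPKM. These levels rest on few fragments: for KRT14 about 17.4, 13.3 and 15.3 estimated fragments against 4.52, 3.54 and 10.6.

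RefSeq promoter sequences (GRCh38.p14, 250 bases before to 50 after the start) matched 34 of the 55 keratins by symbol, and 3 of the 11 with a mean of at least 1 FPKM. These 3, the only ones of that level in the table, are printed. Capitals mark matches to TATAAA, the TATA box, and the same search covered TGANTCA (AP-1) and GCCNNNGGC (AP-2) on both strands.
KRT34 promoter, chr17:41382257-41382556, minus strand: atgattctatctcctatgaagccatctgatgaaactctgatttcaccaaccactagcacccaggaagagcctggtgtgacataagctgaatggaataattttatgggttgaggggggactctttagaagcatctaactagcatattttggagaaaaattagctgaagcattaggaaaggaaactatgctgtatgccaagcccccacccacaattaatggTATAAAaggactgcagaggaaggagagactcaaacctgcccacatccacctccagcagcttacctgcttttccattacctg
KRT10 promoter, chr17:40822565-40822864, minus strand: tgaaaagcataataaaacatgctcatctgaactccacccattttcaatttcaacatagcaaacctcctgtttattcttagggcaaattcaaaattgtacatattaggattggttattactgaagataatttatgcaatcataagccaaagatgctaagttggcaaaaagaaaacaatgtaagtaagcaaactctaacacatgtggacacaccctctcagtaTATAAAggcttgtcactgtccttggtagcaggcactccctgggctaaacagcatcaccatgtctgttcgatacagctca
KRT8 promoter, chr12:52926420-52926719, minus strand: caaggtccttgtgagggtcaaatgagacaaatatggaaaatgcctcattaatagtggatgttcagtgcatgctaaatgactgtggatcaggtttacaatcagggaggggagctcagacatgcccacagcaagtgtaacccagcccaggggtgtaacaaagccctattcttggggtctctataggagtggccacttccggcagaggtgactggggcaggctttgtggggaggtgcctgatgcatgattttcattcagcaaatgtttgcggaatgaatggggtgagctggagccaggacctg
KRT34 has TATAAA from base -31 to -26 and KRT10 from -29 to -24 relative to the start, and KRT8 has none of the 3 motifs in its window. Of the 38 keratin promoters in the table (some genes have more than 1), 21 (55.3%) hold TATAAA, against 11.5% of all 35116 promoters. TGANTCA was in 0 of the 38 and in 7.71% of all, and GCCNNNGGC in 5 (13.2%) and 23.2%.

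Genes around the keratins were read from lists of general knowledge. Of 18 squamous transcription factors, 11 had a mean under 1 FPKM, among them GRHL2 at 0 in all samples. A total of 12 were tested, 3 higher and 3 lower by adjusted p (16.4% and 18.9% of all genes tested), with a median log2 fold change of -0.11. KLF4, which promotes epidermal differentiation, fell from 22.2 ± 0.761 to 12.5 ± 0.722 FPKM (SD, n = 3; log2 fold change -0.78). TFAP2A and TFAP2C, AP-2 factors of keratinocytes, fell as well (44.2 ± 1.48 to 29.9 ± 2.06 and 24.7 ± 0.592 to 17.7 ± 0.615 FPKM). KLF5, of proliferating epithelium, rose from 65.8 ± 1.59 to 83.2 ± 2.75 FPKM. BNC1 and PAX9, the other factors past adjusted p, chosen after their values were seen, were higher at 5.48 ± 0.296 against 3.60 ± 0.104 and 1.16 ± 0.221 against 0.462 ± 0.0831 FPKM. With the most abundant transcript in place of the gene sum the calls of KLF4 (log2 fold change -0.77, adjusted p = 0.199), KLF5 (0.17, adjusted p = 0.0814) and TFAP2A (0.069, adjusted p = 0.865, all by limma) were lost, and those of TFAP2C, BNC1 and PAX9 were kept.

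Desmosomes anchor keratin filaments at cell junctions. Of 17 desmosome genes, 8 had a mean under 1 FPKM, among them DSG1, DSG4 and DSC1 at 0 in all samples and DSC2 and DSC3 near 0. A total of 9 were tested, 2 higher and 3 lower (16.4% and 18.9% of all genes tested), with a median of -0.07. PPL, periplakin, which links filaments to the desmosome and the cornified envelope, was a DEG at 13.2, 13.2 and 12.9 FPKM in the OV-BRCA1 samples against 32.1, 33.8 and 34.0 in the NC samples (log2 fold change -1.28, SE 0.05, adjusted p = 2.19e-05 by limma). PERP fell from 109.6 ± 2.90 to 73.0 ± 0.941 FPKM and JUP, plakoglobin, from 73.8 ± 1.497 to 59.0 ± 4.11 FPKM, while PKP3 did not pass (26.0 ± 2.81 and 27.4 ± 2.54 FPKM). DSP, desmoplakin, and DSG2, named after their values were seen, were the higher ones, at 19.6 ± 0.398 against 14.4 ± 0.0539 and 15.0 ± 0.371 against 11.4 ± 0.365 FPKM. With only 9 genes tested, of which 4 did not pass, the counts of higher and lower genes describe the list and were given no test. With the most abundant transcript the calls of JUP (log2 fold change -0.21, adjusted p = 0.173) and DSP (-0.02, adjusted p = 0.959, both by limma) were lost.

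The genes of the cornified envelope and late differentiation were largely silent. Of 49 members, 21 were at 0 in all samples, 40 had a mean under 1 FPKM and 11 were tested, 5 higher and 1 lower (16.4% and 18.9% of all genes tested), with a median of 0.30; 1 of the 11 passed the filter through 1 group alone. RHCG (2.35 ± 0.141 against 0.492 ± 0.0909 FPKM, log2 fold change 1.17) and SERPINB3 (2.59 ± 0.768 against 0.686 ± 0.135 FPKM, log2 fold change 1.07), a transporter and a protease inhibitor of squamous epithelium, were DEGs. DMKN, a secreted epidermal protein, rose from 43.6 ± 1.61 to 63.5 ± 7.39 FPKM, and CNFN, cornifelin, fell from 21.5 ± 2.97 to 11.3 ± 0.449 FPKM. EMP1 (59.3 ± 15.1 and 66.4 ± 2.56 FPKM) and ECM1 (2.90 ± 0.212 and 3.69 ± 0.683 FPKM) did not pass. OV-BRCA1 sample 1 stood apart in EMP1 (76.7 FPKM, with 50.4 and 50.8 in the other OV-BRCA1 samples). Without it EMP1 passed at a log2 fold change of -0.39 (adjusted p = 0.00781 by limma), and with its most abundant transcript alone it passed the opposite way at 0.47 (adjusted p = 0.00169). SERPINB4 and ALOXE3, the other higher members, named after their values were seen, had 1.548 ± 0.137 against 0.502 ± 0.116 and 0.757 ± 0.228 against 0.1295 ± 0.0609 FPKM. ALOXE3 is the member that passed the filter through the OV-BRCA1 group alone and so had to differ, and it was not tested with an OV-BRCA1 sample left out or with its most abundant transcript. The calls of DMKN and RHCG were lost with the most abundant transcript (adjusted p = 0.923 and 0.126 by limma), and SERPINB3 fell short of the DEG fold change with it (0.93) and without OV-BRCA1 sample 3 (0.92).

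Hemidesmosomes tie the basal filaments to laminin. Of 15 members 12 were tested, 5 higher and 3 lower (16.4% and 18.9% of all genes tested), with a median of 0.01. Among the higher genes were ITGB1, at 188 ± 19.7 against 145 ± 16.8 FPKM, and, named after their values were seen, the integrin gene ITGA3 (107 ± 3.56 against 72.2 ± 0.618 FPKM) and the laminin genes LAMA3 (7.06 ± 0.670 against 5.31 ± 0.556) and LAMB3 (27.5 ± 1.35 against 13.5 ± 0.843). ITGB4, the integrin chain bound by plectin, was lower at 2.05 ± 0.519 against 4.74 ± 0.666 FPKM. TRIM29, a basal-cell gene, had 58.3, 101 and 55.5 FPKM in the OV-BRCA1 samples and 116, 116 and 128 in the NC samples (log2 fold change -0.79, SE 0.22, adjusted p = 0.0374 by limma). Its OV-BRCA1 sample 2 stood apart, and the call was lost when any sample but that one was left out (adjusted p up to 0.105) and was 0.000843 without it. It was also lost with no filter (0.0958), the replicate block (0.0580) and the most abundant transcript (0.2002). The ITGB1 call was lost without OV-BRCA1 sample 1 or 3 or NC sample 1 or 2 (adjusted p = 0.106, 0.109, 0.105 and 0.105), with no filter (0.0933) and with the most abundant transcript (0.219). LAMA3 lost its call without OV-BRCA1 sample 1 or 3 or NC sample 2 or 3 (adjusted p = 0.105, 0.0925, 0.101 and 0.0833 by limma) and with no filter (0.0766). With the most abundant transcript the calls of LAMA3 (log2 fold change -0.28, adjusted p = 0.571), ITGB4 (0.41, adjusted p = 0.446) and LAMB3 (0.63, adjusted p = 0.673, all by limma) were lost, the first 2 with the opposite sign. SFN and CD151 did not pass, at 125 ± 6.89 against 134 ± 1.08 and 131 ± 25.2 against 131 ± 18.9 FPKM.

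A further list holds genes of proteins that bind or fold keratin filaments. All 10 filament partners were tested, 0 higher and 4 lower (16.4% and 18.9% of all genes tested), with a median of -0.35. HSPB1, a small heat shock protein, fell from 231 ± 6.41 to 151 ± 6.42 FPKM, the cytolinker PLEC, plectin, from 108 ± 2.93 to 80.1 ± 1.22, and PNN, pinin, from 84.1 ± 0.672 to 68.7 ± 2.82 FPKM. FBF1, a keratin-binding protein of centrioles named after its values were seen, was the fourth, at 9.23 ± 0.558 against 17.2 ± 0.758 FPKM. STUB1, a ubiquitin ligase, did not pass (44.8 ± 5.33 against 54.1 ± 2.87 FPKM, adjusted p = 0.0675 by limma), but did without OV-BRCA1 sample 2 (0.0368). With the most abundant transcript the calls of PLEC (log2 fold change -2.12, adjusted p = 0.461) and FBF1 (-0.32, adjusted p = 0.0742, both by limma) were lost, PLEC with a larger fold change than its gene sum (-0.43).

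Other intermediate filaments were also present. Of 15 members 10 were tested, 3 higher and 3 lower (16.4% and 18.9% of all genes tested), with a median of -0.16. NEFH and INA, filament proteins known from neurons, had more signal than most keratins: NEFH rose from 119 ± 1.48 to 175 ± 1.83 FPKM (log2 fold change 0.56) and INA from 61.9 ± 0.634 to 110.4 ± 3.15 FPKM (log2 fold change 0.82). Both calls held in each alternative run. The nuclear lamins LMNA (81.3 ± 5.67 to 61.5 ± 4.68 FPKM) and LMNB1 (32.5 ± 4.95 to 23.5 ± 2.31 FPKM) fell. LMNB1 lost its call without OV-BRCA1 sample 1 or 3 or NC sample 1 or 2 (adjusted p = 0.0936, 0.0878, 0.0606 and 0.0636 by limma), with no filter (0.0775), with the replicate block (0.0715) and with the most abundant transcript (0.955), and LMNA with the most abundant transcript (0.885). NEFL and SYNM, the remaining 2 past adjusted p and named after their values were seen, were higher and lower, at 4.75 ± 0.202 against 2.28 ± 0.129 and 8.74 ± 0.177 against 10.7 ± 0.325 FPKM. NEFL lost its call with the most abundant transcript, with the opposite sign (log2 fold change -0.29, adjusted p = 0.1004 by limma), and SYNM without OV-BRCA1 sample 3 (0.0554) or NC sample 1 (0.0566) or 3 (0.0619) and with the replicate block (0.0636).

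**Figure D5:**
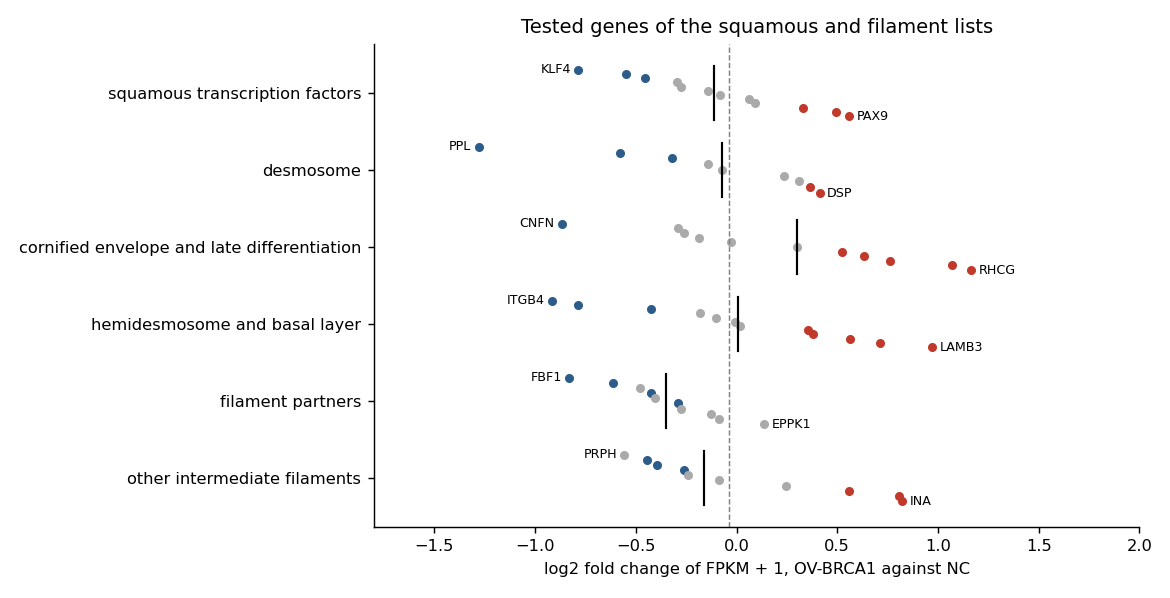
Log2 fold change of FPKM + 1 in the OV-BRCA1 group against the NC group for the tested genes of 6 lists, 1 point per gene; red is higher and blue lower by adjusted p, grey did not pass, black lines are list medians and the dashed line is the median of all genes tested (-0.04). Outermost genes are named, and each list but the filament partners has genes past the test on both sides.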

How the data were processed

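The authors deposited FPKM values per transcript for 6 SiHa samples, and the submitters' processing notes name FastQC, HISAT2 and the build hg38. The quantification tool and the use of strand are not given in the sources used here. Groups and replicate numbers came from the labels. Here FPKM was summed per gene, genes were named by GENCODE release 29 (198868 of 199167 transcripts matched), and genes reaching 0.5 FPKM in 3 or more samples were tested on log2(FPKM + 1) with limma 3.58.1 (R 4.3.3, trend, not robust) and Benjamini-Hochberg adjustment over all 16321 genes. This scale understates changes of low genes. The test was checked on simulated data. Mitochondrial genes held 14.8% to 17.2% of FPKM in the OV-BRCA1 group and 21.0% to 23.2% in the NC group, which 1 scaling alternative leaves out; its part in the results was not tested. Members and lists were chosen with earlier results of these data known. Named genes were keratins with a mean of at least 1 FPKM, and of each list the DEGs and the 4 most abundant genes. Alternatives varied pseudocount, filter, scaling, replicate block, transcript and samples.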

Additional observations from a re-analysis of the deposited data

How the results depend on the processing

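The counts of keratins past adjusted p (6 higher, 2 lower) and of keratin DEGs (2 higher, 0 lower) were recomputed under each alternative. With the most abundant transcript in place of the gene sum, 5 keratins were higher and 1 lower by adjusted p (KRT80 and KRT10 lost), and with a pseudocount of 0.1, 3 keratins were DEGs on the higher side (KRT6A added) and 1 (KRT10) on the lower side. With no filter 6 were higher, of which 4 were the same (KRT14 and KRT75 in place of KRT8 and KRT80). Median-of-ratios scaling gave 7 higher (KRT14 added), and scaling to nuclear protein-coding FPKM 5 (KRT8 lost). With a mean of at least 1 FPKM as filter 5 were higher, since KRT6A was not tested. With 1 sample left out, the counts ran from 2 to 5 higher and stayed at 2 lower by adjusted p, and from 1 to 2 higher and 0 to 1 lower as DEGs. KRT34 and KRT6A were not tested when an OV-BRCA1 sample was left out, since the filter asks for 3 samples. Replicate numbers did not pair the samples (correlation of deviations from the group means -0.02, 0.03 and 0.01 for numbers 1, 2 and 3, and not each sample correlated best with its own number); with the replicate block, 4 keratins were higher and 2 lower by adjusted p. Some log2 fold changes turned sign, among them those of TFAP2A, LMNA and LMNB1, which had passed the test. GAPDH came to -0.0075 with scaling to nuclear protein-coding FPKM and CD151 to 0.0268 with median-of-ratios scaling. With the most abundant transcript, the log2 fold change was 0.00 for KRT7 (0.00089), 0.069 for TFAP2A, 0.33 for ECM1, 0.47 for EMP1, 0.95 for CD151, 0.16 for LMNA and 0.15 for LMNB1. With 1 sample left out it ran from -0.14 to 0.00867 for PKP3, from -0.16 to 0.11 for CD151 and from -0.0898 to 0.16 for KRT8P3. Depth limits what can be said of keratins under 1 FPKM, and gene sums rest on the authors' division of reads among transcripts and overlapping genes.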
